A study of Mus musculus with 2 samples.

Results

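Somatostatin neurons of the Sim1 lineage were picked out of a single-nucleus RNA library of the mouse paraventricular hypothalamus (PVH). They were chosen by their own transcript counts, as nuclei with at least 4 Sst UMIs (unique molecular identifiers, each standing for 1 captured RNA molecule), at most 1 UMI summed over the GABAergic genes Gad1, Gad2 and Slc32a1, fewer than 2 Crh UMIs and fewer than 10 UMIs each of Oxt and Avp. Only barcodes with at least 500 genes and exactly 1 positive hashtag were counted. The rule found 251 of 4904 such nuclei, or 5.12% (4.52 to 5.77), and these are called Sst nuclei here. The other 4653 nuclei serve as the comparison.

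All 17 mice were 4 weeks old and carried Sim1-Cre with the Sun1-GFP reporter, a fusion protein that lights up the nuclear rim of any cell with a history of Cre activity, also where Sim1 has since been switched off. Of these mice, 4 were also Otpfl/+, 6 were heterozygous for Otp Q153R, and 7 had an unaltered Otp gene. The deposited hashtag names are KD, Q153R and Ctrl. KD was taken to be the Otpfl/+ mice because the other names fit the other genotypes; no label says so. Nuclei of all mice were pooled into 1 library of 6173 barcodes, so mice cannot be told apart, and each genotype is 1 pool. There is therefore no replicate and no test. Ratios are given with 95% intervals that cover counting error only, not variation between mice. Intervals of levels and of their ratios treat each UMI as an independent draw, so they also leave out variation between nuclei and are too narrow for uneven genes. The sort kept nuclei marked by the Cre driver, so somatostatin neurons outside the Sim1 lineage were not sampled except as carry-over. Otp encodes a homeodomain factor that in mice is needed for the development of hypothalamic neuroendocrine neurons, somatostatin neurons among them.

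Somatostatin made by periventricular and paraventricular neurons is released at the median eminence and restrains growth hormone (GH) release from the pituitary. GH acts back on the brain through its receptor, encoded by Ghr, which activates the kinase JAK2; JAK2 in turn phosphorylates the transcription factors STAT5A and STAT5B. The genes Socs1, Socs2, Socs3 and Cish encode inhibitors of this pathway, several of which STAT5 itself switches on. Somatostatin is cut from a larger precursor and stored in dense-core vesicles with the proteins that process and release neuropeptides.

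The threshold of 4 Sst UMIs fell at the foot of a long tail. Among nuclei that met the other limits, 2841 had 0 Sst UMIs, 592 had 1, 98 had 2 and 31 had 3, whereas 27 had 4, 14 had 5 and 28 had 6. The members ranged from 4 to 36 Sst UMIs with a median of 9. Of the 302 nuclei with 4 or more Sst UMIs, 46 were left out for GABAergic transcripts, 2 for Crh and 3 for Oxt. The Sst nuclei held 687 to 19527 gene UMIs with a median of 4426, against a median of 5296 in the other nuclei. By pool they numbered 61 in KD, 79 in Q153R and 111 in Ctrl, with median depths of 4901, 4027 and 4561 UMIs. Nuclei with several hashtags had been set aside, which removes doublets between pools but not those within a pool.

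**Figure D1:**
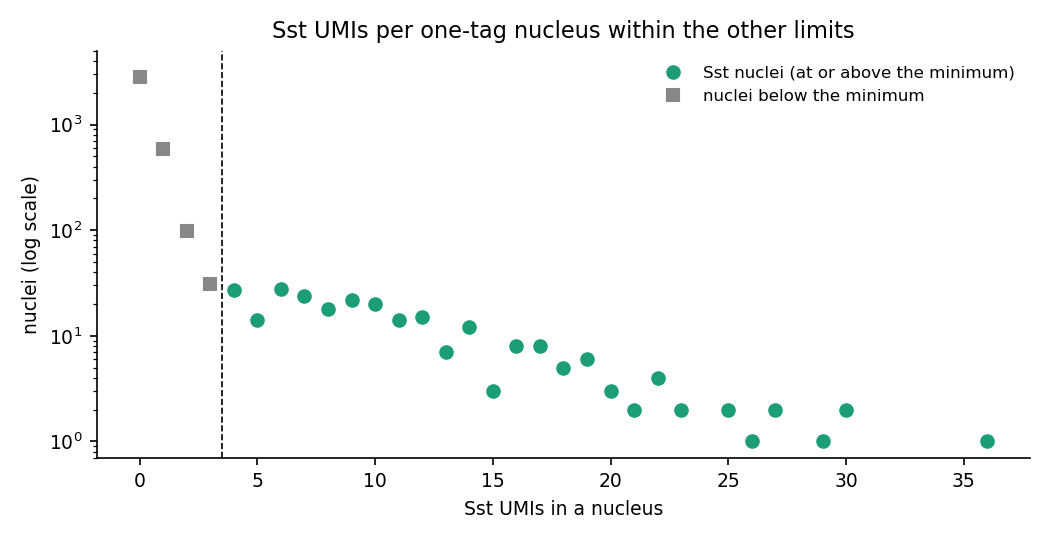
Number of nuclei (vertical, log scale) by Sst UMIs per nucleus (horizontal) among nuclei with 1 hashtag that met every other limit. Circles are the 251 Sst nuclei and squares the nuclei below the minimum of 4 UMIs (dashed line); counts drop from 2841 nuclei at 0 UMIs to 31 at 3 UMIs, and a tail runs on to 36 UMIs.

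Sst UMIs occurred at a low rate in every kind of nucleus, so shares were compared after thinning each nucleus to 2000 UMIs. This left 238 Sst nuclei and 4282 others, and 13 Sst nuclei and 371 others were too shallow. An Sst UMI was then present in 96.2% of Sst nuclei, which the rule fixes, and in 10.0% of other nuclei, close to the 11.8% (6.05 to 20.2) of the 93 nuclei in glial clusters, which do not make the peptide. A Ghr UMI was present in 78.6% of Sst nuclei and 32.1% of other nuclei, against 30.1% in glial clusters and 22.4% in the GABAergic-like cluster. Before thinning the Ghr shares were 89.6% and 47.8%. Col12a1, which encodes a collagen chain, was detected in 25.2% of thinned Sst nuclei and 1.42% of others, and Stat5a in 7.98% and 0.58%. In glial clusters 1 of 93 thinned nuclei held Col12a1 and 0 of 93 held Stat5a, which by the limit of 3 counts allows a share of up to 3.23%. Before thinning, Stat5a was found in 13.1% of Sst nuclei and 2.0% of glial nuclei. These 3 genes had been named beforehand as markers of the population with these data in view, so their levels describe it and support nothing further. Oxt, the oxytocin gene, was found in 26.9% of Sst nuclei, in 26.6% of others and in 38.7% of glial nuclei, and Avp, the vasopressin gene, in 26.5%, 27.8% and 22.6%. The rule had removed nuclei rich in either transcript, so these low shares are partly set by it.

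Sim1, the transcription factor whose locus drives the Cre, stood at 495 CPM (UMIs scaled to a common library total, 457 to 536) in Sst nuclei and 446 CPM in others. By pool, Sim1 measured 455 CPM in KD, 519 CPM in Q153R and 502 CPM in Ctrl Sst nuclei, against 418, 529 and 409 CPM in the other nuclei of those pools. Arnt2, which encodes the partner protein of SIM1, was 1.48-fold higher in Sst nuclei (1.35 to 1.63), Otp 1.21-fold (0.989 to 1.46), and Pou3f2, another factor of PVH development, 0.724-fold (0.517 to 0.988). Slc17a6, which loads glutamate into synaptic vesicles, stood at 111 CPM in Sst nuclei and 132 CPM in others. Glial markers were low: the summed astrocyte list measured 51.8 CPM in Sst nuclei against 125 CPM in others, the oligodendrocyte list 51.0 against 176 CPM, the oligodendrocyte precursor list 423 against 1113 CPM, and the microglial list 58.1 against 74.6 CPM. Tnr, which is also in the matrix and adhesion list below, gave 192 and 425 CPM of the precursor sums. How much of those sums came from glia was not tested. Vascular markers summed to 9.55 and 12.7 CPM. Of these lists, 4 of 10 astrocyte, 4 of 10 oligodendrocyte, 5 of 10 precursor, 5 of 10 microglial and 6 of 10 vascular markers had no UMI in Sst nuclei. Arcuate and other hypothalamic markers summed to 77.2 CPM in Sst nuclei and 69.7 CPM in others, with 1 of 11 measured members higher by the rule below (Fezf1). Ependymal and tanycyte markers summed to 68.5 and 17.5 CPM, nearly all of it in Sst nuclei the collagen gene Col23a1, and 5 of 9 had no UMI. GABAergic markers other than the 3 in the rule summed to 27.1 CPM in Sst nuclei and 33.3 CPM in others. The part of such markers in the results below was not tested.

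The receptor for GH and both STAT5 genes were higher in Sst nuclei. A gene was called higher or lower when the ratio of CPM + 5 between Sst nuclei and the others reached 2-fold over all nuclei and in each of the 3 pools. Among 16413 genes with at least 20 UMIs, 78 were higher (0.475%) and 130 lower (0.792%), with a median log2 ratio of -0.04. Genes that the rule used were kept in these counts, and Sst is among the 78. In the GH feedback list 22 of 26 genes could be measured, of which 3 were higher, Ghr, Stat5a and Stat5b, and 0 lower. The list's median log2 ratio was 0.26, and 17 of its 22 genes lay above 0. These counts include Ghr and Stat5a, which had been named as markers with these data in view. Their calls are therefore description, and Stat5b was the only other gene called.

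Ghr (chromosome 15, 3317760 to 3583492, minus strand, GRCm38), the receptor itself, measured 1376 CPM in KD, 1857 CPM in Q153R and 1931 CPM in Ctrl Sst nuclei. In the other nuclei it stood at 241, 310 and 328 CPM in the same pools, so each pool's Sst nuclei lay far above all 3 comparison groups. The overall ratio was 5.99 (5.71 to 6.28). Within Sst nuclei the receptor was uneven: single nuclei held 0 to 83 Ghr UMIs, with a median of 6. The intervals given for Ghr leave this unevenness out. Its dispersion index, which is 1 where all nuclei share the same level, was 9.23, against a median of 1.48 over 2495 genes. Kcnip4, a potassium-channel accessory protein, had the highest index of these genes at 35.1. For uneven genes the index also rises with the gene's level, and Ghr averaged 8.86 UMIs per Sst nucleus. Whether Ghr was more uneven than genes of similar level was not tested.

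Stat5a and Stat5b, the transcription factors that carry the receptor's signal to DNA, are neighbours on chromosome 11. Stat5a had 35.0 CPM in KD, 35.7 CPM in Q153R and 36.4 CPM in Ctrl Sst nuclei, against 2.06, 3.68 and 2.90 CPM in the others, a ratio of 12.5 (8.45 to 18.3) that rests on 45 UMIs. Stat5b had 439, 453 and 518 CPM against 164, 182 and 178 CPM, a ratio of 2.74 (2.52 to 2.99). Both genes were thus higher in the Sst nuclei of each pool. Jak2, the receptor's kinase, differed little, at 109 CPM in Sst nuclei and 87.0 CPM in others (ratio 1.25, 1.05 to 1.49).

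Of the pathway's inhibitors, Socs3 stood at 9.55 CPM in Sst nuclei and 0.791 CPM in others, a ratio of 12.1 (5.41 to 25.7) on 12 UMIs. Socs1 stood at 15.1 and 3.09 CPM, a ratio of 4.90 (2.81 to 8.14) on 19 UMIs. These small counts kept both short of a call once 5 CPM was added. Socs2, a classical STAT5 target, had 35.8 CPM in Sst nuclei and 23.5 CPM in others (ratio 1.52, 1.10 to 2.06), and Cish only 3.98 and 3.01 CPM. The adaptor gene Irs2, which serves insulin and IGF1 receptors, had a ratio of 1.68 (1.33 to 2.09), and Igf1r, the IGF1 receptor gene, a ratio of 1.29 (1.17 to 1.42). Igfbp3, an IGF-binding protein gene, measured 10.4 and 2.83 CPM on 13 UMIs. Igf1, Igf2r, Igfbp5, Irs1, Ptpn1, Ptpn2, Ptpn11 and Sh2b1, further genes of GH and insulin-like signalling, had ratios between 0.948 and 1.33. In the opposite direction, Prlr, which encodes the prolactin receptor and also signals through STAT5, was at 39.0 CPM in Sst nuclei and 115 CPM in others (ratio 0.340, 0.251 to 0.451). It missed the call because the Ctrl pool's ratio of 0.496 exceeded the limit once 5 CPM was added. Gab1, an adaptor protein gene, had 3.98 and 17.5 CPM on 5 UMIs in Sst nuclei.

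**Figure D2:**
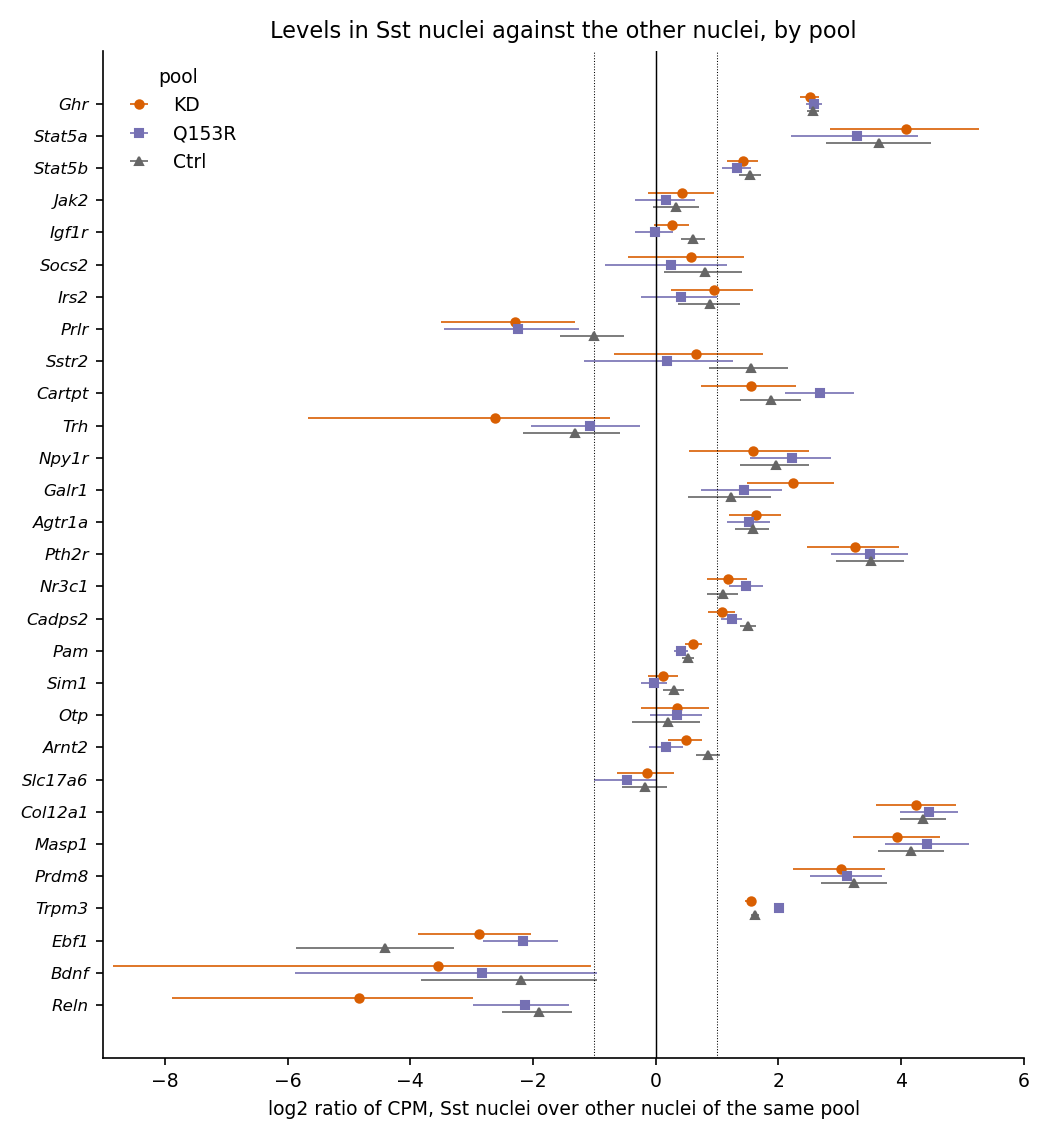
Log2 ratio of CPM in Sst nuclei over the other nuclei of the same pool (horizontal) for 29 genes (rows), drawn separately for the KD (circles), Q153R (squares) and Ctrl (triangles) pools; bars are 95% counting intervals and dotted lines mark 2-fold. Ghr, Stat5a, Stat5b, Col12a1, Masp1, Pth2r and Prdm8 lie right of the upper line in every pool, while Ebf1, Bdnf and Reln lie left of the lower one.

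Receptors for somatostatin were sparse. Sstr2, a somatostatin receptor gene, measured 31.1 CPM in Sst nuclei and 15.2 CPM in others (ratio 2.04, 1.43 to 2.84). Its ratio was 1.58 in KD, 1.13 in Q153R and 2.93 in Ctrl, so it was not called. Sstr1 had 8.76 and 4.15 CPM, Sstr5 3.98 and 0.641 CPM on 5 UMIs, and Sstr3 0 UMIs, against 1.21 CPM in others. Of the 4 measured genes of the family besides Sst, 0 were called either way, and their median log2 ratio was 0.63. Ghrh, which encodes the GH-releasing hormone that opposes somatostatin, was at 3.98 CPM in Sst nuclei and 4.86 CPM in others.

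Among 25 measured neuropeptide genes, 1 was higher and 0 lower, with a median log2 ratio of -0.29 and 8 genes above 0. The higher one was Cartpt, whose product CART is an appetite-restraining peptide. It measured 54.0 CPM in KD, 98.9 CPM in Q153R and 74.5 CPM in Ctrl Sst nuclei, against 18.4, 15.4 and 20.1 CPM in the others, a ratio of 4.19 (3.33 to 5.23). At equal depth 13.9% of Sst nuclei held a Cartpt UMI, against 3.08% of others and 2.15% of glial nuclei. Trh, the thyrotropin-releasing hormone gene, lay lower at 23.1 CPM in Sst nuclei and 57.9 CPM in others (ratio 0.399, 0.266 to 0.575), without reaching the call. Nucb2 and Agrp, genes of the feeding peptides nesfatin and AgRP, had ratios of 1.21 and 1.20. Pmch, the melanin-concentrating hormone gene, had 2 UMIs in Sst nuclei.

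In the peptide-processing list 1 of 20 genes was higher and 1 lower, with a median log2 ratio of 0.25 and 14 genes above 0. Cadps2, which encodes a priming factor for dense-core vesicles, measured 812 CPM in Sst nuclei and 316 CPM in others (ratio 2.57, 2.41 to 2.74). Pam, the enzyme that amidates peptides, was at 1588 and 1110 CPM, and Resp18, an endocrine secretory-granule protein gene, at 430 and 291 CPM; neither reached 2-fold. Syt7, a calcium sensor of vesicle release, was the lower one at 22.3 CPM in Sst nuclei and 74.5 CPM in others. Chga, a granule protein gene, had 23.1 and 42.4 CPM. Of 13 measured genes of classical transmitters 0 were called, and Nos1, Abat and Slc17a5 had ratios from 0.884 to 1.11.

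Of 58 receptor genes of hormone and energy signalling 3 were higher and 2 lower, with a median log2 ratio of -0.16. Npy1r, a receptor for neuropeptide Y, measured 35.0 CPM in KD, 68.7 CPM in Q153R and 57.1 CPM in Ctrl Sst nuclei, against 11.6, 14.7 and 14.7 CPM in others (ratio 3.99, 3.04 to 5.18). Galr1, a galanin receptor gene, had a ratio of 2.98 (2.27 to 3.86), and Nr3c1, the glucocorticoid receptor gene, 2.35 (2.10 to 2.63). Ramp1, a receptor partner for CGRP and amylin, had a ratio of 3.71 (2.57 to 5.23) but only 1.80 in Q153R. Outside that list, Pth2r, a receptor for the peptide TIP39, stood at 82.0 CPM in Sst nuclei and 7.57 CPM in others (ratio 10.8, 8.45 to 13.8). Agtr1a, the angiotensin II receptor gene, stood at 205 and 67.9 CPM (ratio 3.03, 2.65 to 3.45), and was picked after its values were seen. The lower receptor genes were Npy2r, another neuropeptide Y receptor with 0 UMIs in Sst nuclei (by the same limit at most 2.39 CPM) against 7.57 CPM in others, and Bdnf, a growth factor gene kept in that list, with 6.37 and 38.6 CPM (ratio 0.165, 0.0711 to 0.326). Calcr, the calcitonin receptor gene, had a ratio of 0.350 and was not called.

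Among genes with at least 100 UMIs in Sst nuclei, those with the highest ratios besides Sst were of varied function. Col12a1 (chromosome 9, 79598991 to 79718831, minus strand, GRCm38) reached 118 CPM in KD, 217 CPM in Q153R and 222 CPM in Ctrl Sst nuclei, against 6.18, 9.87 and 10.8 CPM in others (ratio 21.4, 17.8 to 25.7). Masp1, a serine protease of the complement lectin pathway, followed with a ratio of 18.1 (14.2 to 23.1), and Hhip, which encodes a hedgehog-binding protein, with 15 (11.8 to 19.1). Each was high in the Sst nuclei of all 3 pools. Prdm8, a transcriptional repressor, had a ratio of 8.87 (6.97 to 11.2), Antxr2, an anthrax-toxin receptor gene, 7.21, and Pdlim5, a cytoskeletal adaptor gene, 6.35. Spag16, Arhgap6, Csgalnact1 and Zeb2, the last a zinc-finger repressor, ranged from 3.97 to 5.02. B4galnt3, a glycosyltransferase gene singled out after its values were seen, stood at 61.3 CPM in Sst nuclei and 1.47 CPM in others (ratio 41.7, 28.0 to 63.0). Of its 77 UMIs in Sst nuclei, 58 lay in the smaller of the 2 main clusters described below, at 146 CPM. The larger cluster held 9, in 6 nuclei, at 16.3 CPM.

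Matrix and adhesion genes split. Of 59 in that list 3 were higher, all collagens, Col12a1, Col23a1 (ratio 6.96, 5.34 to 8.98) and Col11a1 (2.40, 1.96 to 2.91), and 7 were lower, with a median log2 ratio of -0.23. Col12a1 is also among the markers named with these data in view. Among the lower ones, Reln, the secreted migration signal reelin, measured 35.0 CPM in Sst nuclei and 179 CPM in others (ratio 0.196, 0.142 to 0.264), and Plxna4, a semaphorin receptor gene, 75.6 and 318 CPM (ratio 0.238, 0.192 to 0.292). The other 5 were Tnr, Ntng1, Cdh8, Robo2 and Epha5, genes of axon guidance and cell contact. Of 48 ion-channel genes 1 was higher, Trpm3, a heat- and steroid-gated cation channel, with 3529 CPM in Sst nuclei and 1078 CPM in others (ratio 3.28, 3.17 to 3.38). The 3 lower channel genes were Kcnn2, Cacna2d3 and Scn1a, the first with a ratio of 0.313 and the second with 0.310. Trpc4 and Kcnh8 had ratios of 2.64 and 2.45 but missed 2-fold in a pool. Of 37 transmitter receptor subunit genes 0 were higher and 1 lower, the kainate receptor gene Grik3 (ratio 0.189, 0.0756 to 0.390). Grid1, the delta glutamate receptor gene, stood at 1738 CPM in Sst nuclei and 871 CPM in others, just short of the call.

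Of 58 measured transcription factors of hypothalamic lineages 2 were higher and 7 lower, with a median log2 ratio of -0.28. Fezf1 and Zic5, zinc-finger factors of forebrain development, had ratios of 4.56 (2.74 to 7.28) and 4.07 (2.59 to 6.18) on 22 and 27 UMIs. Pbx3, a homeodomain cofactor, had a ratio of 3.0 (2.73 to 3.30), yet only 1.99 in Ctrl against 2.88 in KD and 5.08 in Q153R. On the lower side Ebf1, a helix-loop-helix factor, had 35.0 CPM in KD, 65.9 CPM in Q153R and 10.4 CPM in Ctrl Sst nuclei, against 256, 296 and 222 CPM in others, a ratio of 0.129 (0.0922 to 0.175). Its UMIs came from 3 KD, 5 Q153R and 3 Ctrl Sst nuclei. Its relatives Ebf2 and Ebf3 had ratios of 0.304 and 0.293, Foxp2, a forkhead factor, 0.204, and Tcf7l2, a Wnt effector, had 2 UMIs in Sst nuclei against 30.9 CPM in others. Nr2f2 and St18 made up the rest. Tcf7l2 was the first leading gene of a cluster without Sim1 UMIs, and St18 was among the leading genes of a glial cluster. Under the alternative settings the log2 ratio ran from -3.62 to -0.267 for Tcf7l2 and from -3.24 to -0.564 for St18. How far nuclei of those clusters contribute to the calls of Tcf7l2 and St18 was not tested. Other genes with low ratios were Zfp804b (0.155), Trhde, an enzyme that degrades TRH (0.2), Samd5 (0.204), Caln1 (0.212) and the phosphodiesterase gene Pde7b (0.217).

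Calls were few among activity-dependent and imprinted genes, as over all genes, where 0.475% were higher and 0.792% lower. At those shares, lists of this size would hold few calls in any case. Of 22 activity genes 0 were higher and 1 lower, again Bdnf, with a median log2 ratio of 0.08. Crem, Nr4a3 and Egr1, transcription factors induced by neuronal firing, had ratios of 1.54, 1.56 and 1.59. Of 23 imprinted genes 0 were called, with a median log2 ratio of -0.03, and Magel2, a gene of the Prader-Willi region, had a ratio of 1.75 (1.47 to 2.07).

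Several of the higher genes lay side by side on chromosomes. Of the 78, 24 (30.8%) fell into 9 runs of neighbouring measured genes. Over both neighbours of each higher gene, 30 of 156 (19.2%) were higher themselves, against 0.476% of all measured genes with a position. These counts include Sst, by which the nuclei were chosen, with its neighbours, and Stat5a, a marker named with these data in view. They are therefore description. Among lower genes the same count was 10 of 260 (3.85%) against 0.793%. Stat5b (chromosome 11, 100780731 to 100850724, minus strand, GRCm38) and Stat5a (100859351 to 100885169, plus strand) stand head to head, 8626 bases apart. Sst itself (chromosome 16, 23889573 to 23890958, minus strand) lay in a run of 4 with Masp1, Rtp4 and Bcl6. Rtp4, a receptor chaperone gene, measured 35.8 CPM in Sst nuclei and 2.30 CPM in others (ratio 15.6, 10.4 to 23.3), and Bcl6, a repressor known to oppose STAT5 at shared sites, 58.9 and 20.7 CPM (ratio 2.85, 2.21 to 3.64). Masp1 and Rtp4 overlap by annotation, whereas the near end of Bcl6, its 3′ end, lies 74093 bases from Sst. Farther from Sst on that side, Lpp, a focal-adhesion gene, had 318 CPM in Sst nuclei and 152 CPM in others (ratio 2.08) and was not called, and Il1rap, an interleukin receptor subunit gene, was lower at 13.5 and 51.7 CPM. Rtp4, Bcl6, Lpp and Il1rap were taken for their position, after their values were seen. Fezf1 and Cadps2 were another pair, and Prdm8 and Antxr2 belonged to a further run. A run of Tmem2 and Trpm3 joined genes 280685 bases apart. Further runs held overlapping transcripts, such as Arhgap6 with Gm15261 and Elmo1 with Gm32036, and since the strand used in counting is not stated, reads of such partners cannot be told apart. How far shared or misassigned reads contribute to these runs was not tested.

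The promoters of 4 of the higher genes held a full cyclic AMP response element, the palindrome TGACGTCA, which was first described in the rat somatostatin gene and is bound by the factor CREB. The genes are Sst, Cartpt, Hhip and Fstl4, shown because their promoters held the element. Sequences are from RefSeq on GRCm38.p6, read 5′ to 3′ on the gene's strand, with the element in capitals.
Sst, chr16:23890855-23890922, minus strand: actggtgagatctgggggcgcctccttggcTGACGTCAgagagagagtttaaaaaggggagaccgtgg
Cartpt, chr13:99900758-99900825, minus strand: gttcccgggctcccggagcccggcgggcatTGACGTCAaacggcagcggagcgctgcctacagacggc
Hhip, chr8:80058046-80058113, minus strand: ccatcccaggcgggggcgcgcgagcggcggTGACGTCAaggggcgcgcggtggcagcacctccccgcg
Fstl4, chr11:52764599-52764666, plus strand: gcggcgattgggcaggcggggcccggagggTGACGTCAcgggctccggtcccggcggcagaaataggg
The element ended 41 bases before the RefSeq start in Sst, 105 in Cartpt, 68 in Hhip and 70 in Fstl4. The GENCODE gene bounds used for positions here differ: by them only the element of Hhip lies wholly before the gene, that of Fstl4 spans its first base, and those of Sst and Cartpt lie inside it. Fstl4, a follistatin-like protein gene noted after its values were seen, stood at 960 CPM in Sst nuclei and 315 CPM in others (ratio 3.05, 2.87 to 3.24). Promoters running from 250 bases before to 50 after each start were given for 55 of the 78 higher genes, 75 promoters in all, of which 4 (5.33%) held the element. Over all 32851 promoters it occurred in 588 (1.79%). Sst is among the 4, although the rule chose the nuclei by it and the element was first described in its rat counterpart. That match was therefore fixed in advance. The motif TTCNNNGAA, bound by STAT5 and read on both strands since it is its own complement, occurred in 7 of the 75 (9.33%) and in 2726 of all promoters (8.30%). The genes with it were Bcl6, Elmo1, Gm32036, Trpm3 and Zeb2. A match describes these letters alone and is no evidence of binding.

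Sst nuclei were not uniform. When all nuclei were clustered without the listed genes, Sst among them, 132 Sst nuclei (52.6%) fell into 1 cluster, 78 (31.1%) into another and 41 (16.3%) elsewhere. The smaller of the pair is called the Rxfp2 cluster after its leading gene, the receptor for the hormone INSL3, which stood at 128 CPM in its Sst nuclei and 1.81 CPM in those of the larger cluster. An Rxfp2 UMI was found in 24 of these 78 nuclei (30.8%). The name Rxfp2 nuclei thus stands for the cluster, not for detection of the gene. Leading genes of the larger cluster against all nuclei included Hhip and Masp1, but these were about as high in the Rxfp2 cluster, with Hhip at 111 and 121 CPM. At a coarser resolution both merged and a single cluster held 207 Sst nuclei, so the division depends on the setting. Genes used in clustering are not results. Of 7700 genes, 118 (1.53%) were at least 2-fold higher and 172 (2.23%) lower in Rxfp2 nuclei, over all and in each pool. Among the 267 listed genes, which the clustering did not use, 15 (5.62%) were higher in Rxfp2 nuclei and 26 (9.74%) lower. Both sets of genes needed at least 20 UMIs summed over the Sst nuclei. A gene high in 1 cluster could therefore pass that limit through that cluster alone.

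Ghr and both STAT5 genes stood higher in Rxfp2 nuclei than in the larger cluster. Ghr stood at 2322 CPM in KD, 2848 CPM in Q153R and 3591 CPM in Ctrl Rxfp2 nuclei, against 1308, 1546 and 1704 CPM in the larger cluster. The ratio was 1.95 (1.79 to 2.14), and the 41 Sst nuclei outside both clusters had 511 CPM. Stat5a measured 88.0 CPM in Rxfp2 nuclei and 18.1 CPM in the larger cluster (ratio 4.87, 2.36 to 11), and 0 UMIs outside both. Stat5b had 792 and 378 CPM (ratio 2.10, 1.76 to 2.51), Jak2 166 and 92.2 CPM (1.80, 1.23 to 2.65), and Col12a1 382 and 139 CPM (2.75, 2.07 to 3.66). Of these only Stat5a reached 2-fold in each pool. Igf1r ran the other way with 241 CPM in Rxfp2 nuclei and 436 CPM in the larger cluster (ratio 0.554, 0.433 to 0.705). Sst was somewhat lower in Rxfp2 nuclei at 2060 against 2783 CPM (ratio 0.740, 0.679 to 0.806), whereas Sim1 stood at 536 and 493 CPM (ratio 1.09, 0.903 to 1.30). Median depths were 4674.5 and 4097 UMIs.

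Of the nuclei of the 2 clusters with an Npy1r UMI, nearly all were Rxfp2 nuclei, although most Rxfp2 nuclei had none. Npy1r was present in 31 of the 78 Rxfp2 nuclei with 60 UMIs, against 2 of the 132 nuclei of the larger cluster with 2 UMIs, which is 151 and 3.61 CPM and a ratio of 41.7 (11.1 to 353). By pool it measured 85.6 CPM in KD, 184 CPM in Q153R and 161 CPM in Ctrl Rxfp2 nuclei, against 13.2, 0 and 0 CPM, and the 41 nuclei outside both had 22.9 CPM. The kainate receptor gene Grik1 stood at 1122 and 48.8 CPM (ratio 23.0, 15.6 to 35.3) and Ryr3, an intracellular calcium channel gene, at 249 and 14.5 CPM (ratio 17.2, 8.41 to 41.0). Grik1 and Ryr3 were thus not markers of Sst nuclei as such, since the other nuclei had 493 and 288 CPM. Grid1 (ratio 3.10), the potassium channel genes Kcnn3 (3.77) and Kcnh8 (3.43), the adhesion genes Pcdh9 (3.35) and Cdh11 (3.41), and the transcription factor genes Zfhx3 (4.03), Lhx5 (4.73) and Zic1 (3.34) were also higher. Igfbp5, Cacna1e and Gabra3 completed the 15.

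Of 20 peptide-processing genes 0 were higher and 5 lower in Rxfp2 nuclei, with a median log2 ratio of -0.64, and of 13 activity genes 0 were higher and 6 lower, with a median of -1.87. Over all 267 listed genes the median was -0.19. Only 13 of 22 activity genes had the 20 UMIs over Sst nuclei needed to enter. Fos, Egr1, Nr4a1 and Fosl2 did so mainly through the larger cluster, so the activity count and median are partly set by that limit. Pcsk1, a convertase that cuts peptide precursors, measured 64.2 CPM in KD, 44.0 CPM in Q153R and 47.6 CPM in Ctrl Rxfp2 nuclei, against 324, 348 and 217 CPM in the larger cluster (ratio 0.180, 0.107 to 0.287). The second convertase gene Pcsk2 had 194 and 515 CPM (ratio 0.376, 0.288 to 0.485), and Pam 777 and 2115 CPM (0.368, 0.323 to 0.417). Chgb, a granule protein gene, and Syt4, a vesicle protein gene, had ratios of 0.364 and 0.348. Cartpt stood at 37.7 and 97.6 CPM (ratio 0.387, 0.203 to 0.695). Of the activity genes, Fos had 1 UMI in Rxfp2 nuclei against 20 in the larger cluster, Egr1 1 against 17 and Nr4a1 1 against 37. Fosl2 had 3 against 32, and Crem 40.2 and 132 CPM (ratio 0.305, 0.166 to 0.529). Htr2c, a serotonin receptor gene, had 32.7 and 280 CPM, Gpr101, an orphan receptor gene linked to GH excess in humans, 30.2 and 146 CPM, and Pde10a, a phosphodiesterase gene, 591 and 3380 CPM. Rorb and Cdh6 showed ratios of 0.0928 and 0.101. Several of these genes were also at higher levels in the larger cluster than in the other nuclei, such as Pcsk1 (280 against 141 CPM), Pam (2115 against 1110 CPM) and Gpr101 (146 against 37.8 CPM), while Htr2c was not (280 against 441 CPM).

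**Figure D3:**
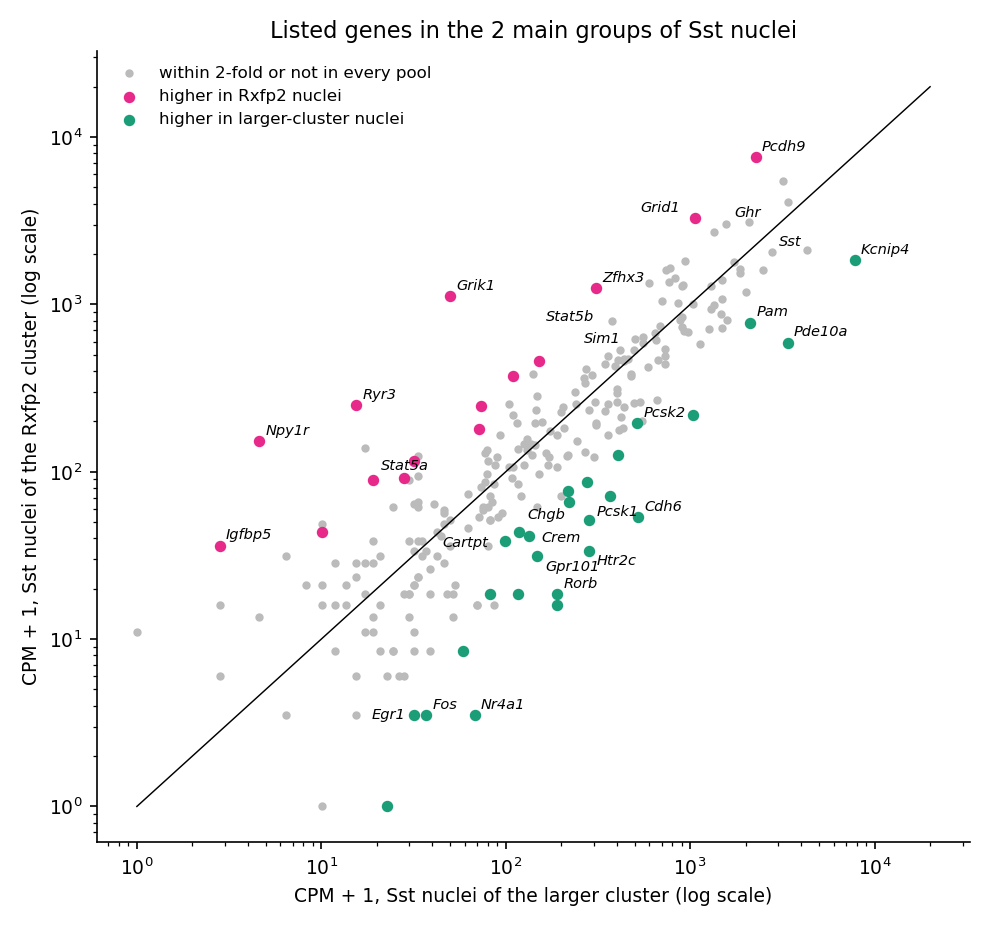
Level of each of 267 listed genes, none used in the clustering, in Sst nuclei of the Rxfp2 cluster (vertical) and of the larger cluster (horizontal), as CPM + 1 on log axes; the line marks equal levels. Pink points, such as Npy1r (151 and 3.61 CPM) and Grik1, are at least 2-fold higher in Rxfp2 nuclei over all and in each pool, and green points, such as Pcsk1, Pam and Fos, at least 2-fold lower.

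The GABAergic limit of the rule cut into the larger cluster. Before that limit it held 163 nuclei with 4 or more Sst UMIs, of which 51 (31.3%, 24.3 to 39.0) had a UMI of Gad2, a GABA-synthesising enzyme gene, at 185 CPM overall. Gad1, the other such enzyme gene, and Slc32a1, the vesicular GABA transporter gene, were each found in only 2 of the 163, while Slc17a6 was found in 57 (35.0%). In the Rxfp2 cluster 3 of 78 nuclei held Gad2 (3.85%, 0.8 to 10.8), 0 held Gad1 and 0 held Slc32a1, and 27 held Slc17a6 (34.6%). In the GABAergic-like cluster, which has Gad1, Slc32a1 and Gad2 among its 10 leading genes, Gad2 stood at 244 CPM. Of the 46 nuclei left out for GABAergic transcripts, 30 lay in the larger cluster, 0 in the Rxfp2 cluster, 7 in the GABAergic-like cluster and 9 elsewhere. Gad2 without its partner genes was thus found in about as many nuclei of the larger cluster as Slc17a6, and the rule removed the 30 of them with over 1 such UMI.

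The 41 Sst nuclei outside both clusters differed from the rest. Their median depth was 7065 UMIs, their median Sst count 6 UMIs and their median Ghr count 2 UMIs, against 9 Sst and 6 Ghr UMIs over all Sst nuclei. Ghr stood at 511 CPM in them and Col12a1 at 49.2 CPM, against 296 and 9.08 CPM in other nuclei. Of the 41, 9 lay in the GABAergic-like cluster. The share of doublets within a pool among them was not tested. Conversely, of 129 nuclei with 2 or 3 Sst UMIs that met the other limits, 20 lay in the larger cluster and 7 in the Rxfp2 cluster.

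The shares of Sst nuclei in the 3 pools overlapped in their intervals. The share was 4.53% (3.48 to 5.78) in KD and 4.97% (3.95 to 6.15) in Q153R, against 5.65% (4.67 to 6.76) in Ctrl. The odds ratio against Ctrl was 0.793 (0.566 to 1.10) for KD and 0.873 (0.641 to 1.19) for Q153R, so both intervals held 1. Over nuclei with a Sim1 UMI the shares were 5.78% in KD and 5.39% in Q153R, against 6.61% in Ctrl. The larger cluster held 52.5% of KD and 49.4% of Q153R Sst nuclei, against 55.0% of those of Ctrl, and the Rxfp2 cluster 29.5% and 36.7%, against 27.9%. Sst nuclei of the larger cluster had odds ratios of 0.760 (0.476 to 1.19) in KD and 0.785 (0.508 to 1.20) in Q153R, and those of the Rxfp2 cluster 0.845 (0.443 to 1.57) and 1.16 (0.671 to 2.0).

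The share of nuclei with female or male transcripts differed between pools. Nuclei with at least 3 Xist UMIs and no Y-linked UMI are called Xist nuclei, and made up 88.5% of KD and 43.0% of Q153R Sst nuclei, against 83.8% of those of Ctrl. In the other nuclei they made up 80.5%, 48.1% and 63.8%. Among Xist nuclei the Sst share was 4.96% in KD and 4.47% in Q153R, against 7.28% in Ctrl, with odds ratios of 0.664 (0.461 to 0.949) and 0.596 (0.385 to 0.902). Among nuclei with 2 or more Y-linked UMIs it was 6.67% (1.40 to 18.3) in KD and 5.25% (3.36 to 7.78) in Q153R, against 2.76% (1.20 to 5.36) in Ctrl, on 3, 23 and 8 Sst nuclei. Ctrl thus had the highest share in the Xist class and the lowest in the other, where the odds ratios of 2.51 (0.413 to 11) for KD and 1.95 (0.828 to 5.12) for Q153R had intervals that held 1. No source says which mice, of which sex, gave these nuclei, so sex, individual mice and genotype cannot be told apart.

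**Figure D4:**
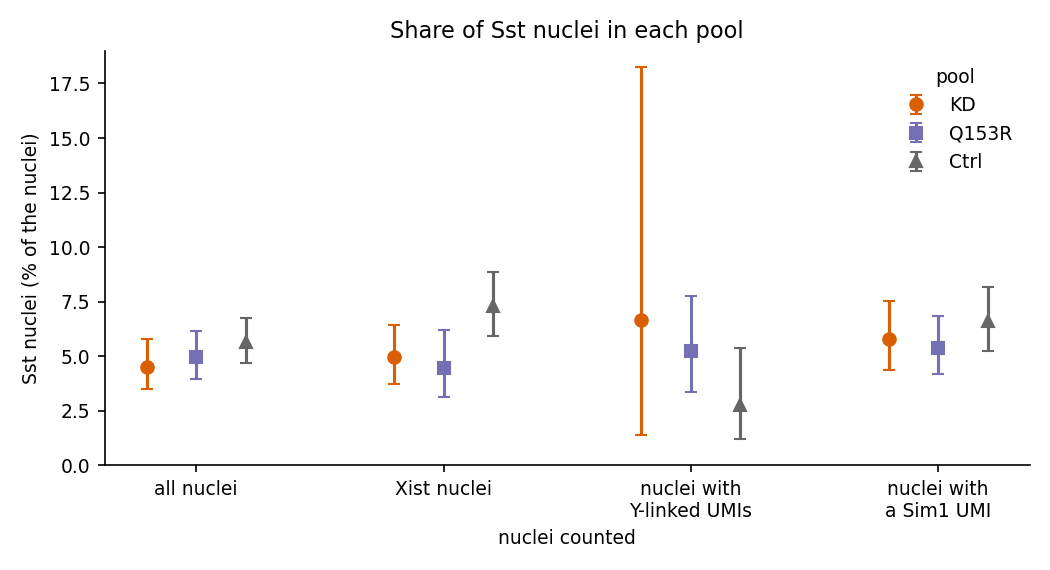
Sst nuclei as a percentage of all nuclei, of Xist nuclei, of nuclei with 2 or more Y-linked UMIs and of nuclei with a Sim1 UMI (groups along the horizontal axis), for the KD (circles), Q153R (squares) and Ctrl (triangles) pools; bars are 95% Clopper-Pearson intervals. The pools overlap over all nuclei, at 4.53%, 4.97% and 5.65%, Ctrl is highest among Xist nuclei at 7.28% and lowest among nuclei with Y-linked UMIs at 2.76%.

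Levels within Sst nuclei were compared between pools for 2495 genes with at least 100 UMIs over the Sst nuclei, and a ratio of CPM + 5 past 1.5-fold was called. In KD 100 genes were higher (4.01%) and 143 lower (5.73%) than in Ctrl, and in Q153R 74 were higher (2.97%) and 100 lower (4.01%). Both comparisons use the same Ctrl nuclei. Otp itself measured 95.4 CPM in KD and 140 CPM in Q153R Sst nuclei, against 52.0 CPM in Ctrl, ratios of 1.84 (1.07 to 3.15) and 2.70 (1.69 to 4.39). In the other nuclei the same ratios were 1.65 and 2.43, so the Otp transcript was higher, not lower, under both labels. Without barcodes near a second hashtag the Q153R ratio of CPM + 5 in Sst nuclei was 1.48, against 2.55 with them, which ends that call. The part of Otp that the floxed allele loses is not given in the labels, so these counts do not check the KD label. Wdr41, which lies downstream of Otp on chromosome 13, measured 334 CPM in KD and 60.4 CPM in Q153R, against 53.7 CPM in Ctrl, a ratio of 6.22 (4.13 to 9.61) for KD and 1.13 (0.621 to 2.01) for Q153R. In the other nuclei the ratios were 4.91 and 1.51.

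Ghr and Col12a1 were lower in KD by ratios close to those in the other nuclei. Ghr was 0.713-fold in KD (0.636 to 0.797) and 0.962-fold in Q153R (0.873 to 1.06), against 0.736-fold (0.697 to 0.778) and 0.947-fold in the other nuclei. Within the Rxfp2 nuclei the KD ratio was 0.647 and in the larger cluster 0.768. Col12a1 was 0.531-fold in KD (0.358 to 0.770) and 0.979-fold in Q153R, against 0.574-fold and 0.916-fold elsewhere. Hhip measured 35.0 CPM in KD and 87.9 CPM in Q153R, against 130 CPM in Ctrl, with a KD ratio of 0.269 (0.129 to 0.510) beside 0.308 in the other nuclei. Sst, whose minimum the rule sets, was 0.930-fold in KD (0.845 to 1.02) and 0.906-fold in Q153R (0.826 to 0.993). Stat5b had ratios of 0.847 (0.687 to 1.04) and 0.876 (0.720 to 1.06), and Stat5a 0.961 (0.419 to 2.09) and 0.982 (0.452 to 2.06). None of Sst, Ghr, Stat5a and Stat5b reached 1.5-fold in either comparison.

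In the GH feedback list 5 genes had enough UMIs to compare. In KD 0 were called, and in Q153R 0 were higher and 1 lower, Igf1r, with 256 CPM in Q153R against 409 CPM in Ctrl, a ratio of 0.625 (0.486 to 0.798). In the other nuclei its ratio was 0.969 (0.914 to 1.03). By group of Sst nuclei the ratio was 0.559 (0.386 to 0.796) in the larger cluster and 0.629 (0.372 to 1.04) in the Rxfp2 cluster, the interval of the second holding 1. The difference between Sst and other nuclei was not tested. In KD the Igf1r ratio was 0.824 (0.649 to 1.04).

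In the peptide-processing list 0 of 16 genes were higher and 4 lower in KD, with a median log2 ratio of -0.23, against -0.01 over all genes. They were Cadps2 (563 CPM in KD, 933 CPM in Ctrl, ratio 0.603), Pcsk1n, an inhibitor of convertases (0.568), Scg5, a chaperone of convertases (0.657), and Syt4 (0.625). In the other nuclei these 4 ratios lay between 0.813 and 0.955. In Q153R 0 of the 16 were called. Of 13 lineage factors, Pbx3 and Otp were higher in both pools, with Pbx3 at 426 CPM in KD and 572 CPM in Q153R, against 253 CPM in Ctrl. The Pbx3 ratios were 1.68 (1.32 to 2.14) and 2.26 (1.82 to 2.81), beside 1.17 and 0.887 in the other nuclei. By group of Sst nuclei the KD ratio of Pbx3 was 2.01 (1.43 to 2.83) in the larger cluster and 0.928 (0.586 to 1.44) in the Rxfp2 cluster, and the Q153R ratio 2.55 (1.85 to 3.54) and 1.75 (1.25 to 2.46). Zfhx4, Tcf4 and Rorb were lower in KD.

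Among the widest differences between pools, Nrn1, a membrane-anchored growth protein gene, measured 28.6 CPM in KD against 93.5 CPM in Ctrl (ratio 0.306, 0.133 to 0.625), with 1.06 in the other nuclei. Htr2c had 105 and 275 CPM (ratio 0.381, 0.254 to 0.557) and 1.12 elsewhere, but with a minimum of 3 Sst UMIs its ratio of CPM + 5 was 0.82 and no longer called. Rgs7bp, a regulator of G-protein signalling, had a ratio of 0.371 and 1.10 elsewhere. Higher in KD were Atp2b4, a calcium pump gene (2.50, 1.59 to 3.95), Mta3, a chromatin repressor gene (2.37, 1.44 to 3.92), Galnt18 (2.15) and Frmd5 (2.14), beside 0.970 to 1.06 in the other nuclei. Without barcodes near a second hashtag the ratios of CPM + 5 were 1.16 for Atp2b4, 1.19 for Frmd5 and 1.4996 for Mta3, all under the 1.5-fold limit. In Q153R, Chrm3, a muscarinic receptor gene, was at 38.5 CPM against 156 CPM in Ctrl (ratio 0.247, 0.130 to 0.436) and at 0.975 elsewhere. Of its 148 UMIs 74 lay in 11 of the 41 nuclei outside both clusters, and the ratio of CPM + 5, 0.27, was 0.583 without barcodes near a second hashtag and 0.102 with a minimum of 8 Sst UMIs. Egfem1 had a ratio of 0.396 (0.320 to 0.486), Pcgf5 0.312 and Ppme1 0.390, the last at 0.682 (CPM + 5, not called) without barcodes near a second hashtag, whereas Ptprj, a receptor phosphatase gene, had 2.32 (1.59 to 3.39) and Gm16083 2.99. Gm28928 reached 3.92, with its UMIs in 15 Q153R and 17 Ctrl nuclei, and was 1.83 (CPM + 5) in the 2 main clusters alone. Il1rapl2, a synaptic adhesion gene, was low in both, with 152.6 CPM in KD and 113 CPM in Q153R, against 407 CPM in Ctrl, spread over 12, 11 and 33 nuclei. Of its 324 UMIs 216 lay in 22 of the 41 nuclei outside both clusters. With no GABAergic limit its KD ratio of CPM + 5 was 0.698 and not called, and with a minimum of 8 Sst UMIs its Q153R ratio was 0.642. Uty, a Y-linked gene, had a Q153R ratio of 5.67 (3.45 to 9.68), beside the sex compositions given above, and of 1.0 (CPM + 5) among Xist nuclei, which by definition hold no Y-linked UMI. How far sex, mixture of nucleus groups or single mice contribute to any of these was not tested.

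**Figure D5:**
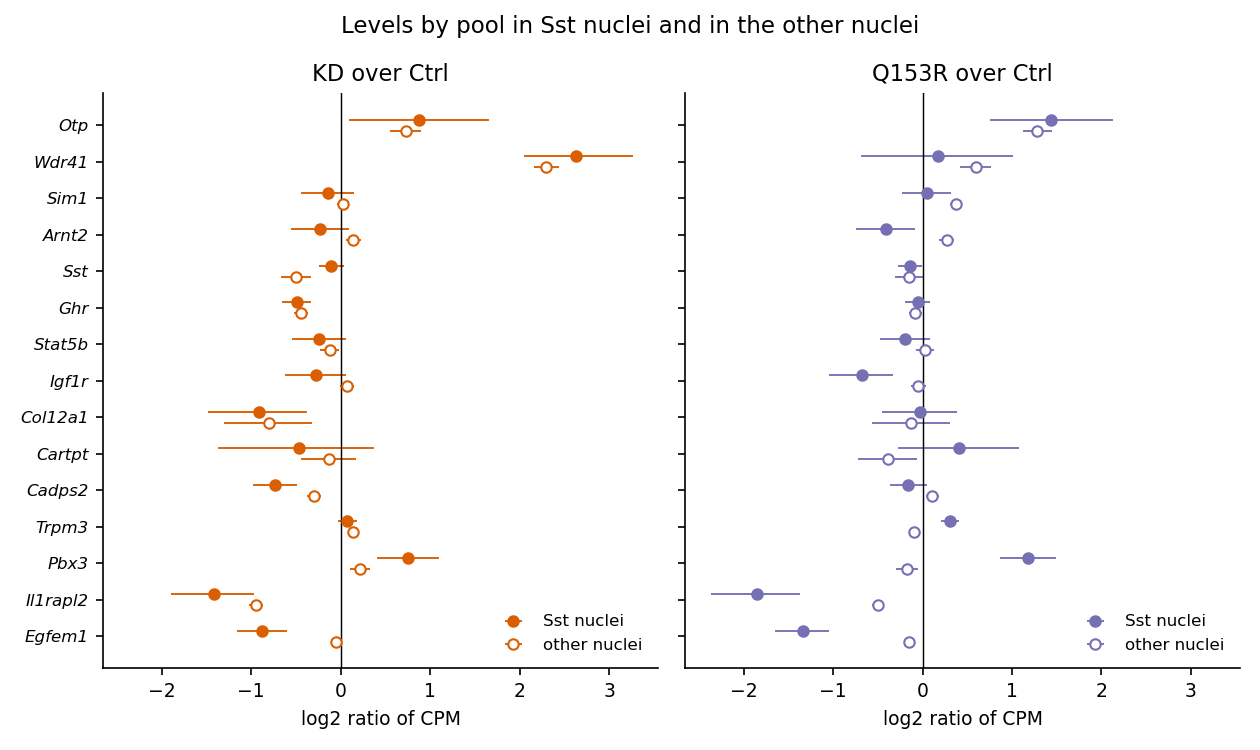
Log2 ratio of CPM for KD over Ctrl (left panel) and Q153R over Ctrl (right panel) for 15 genes (rows), in Sst nuclei (filled circles) and in the other nuclei (open circles); bars are 95% counting intervals. Otp in both panels and Wdr41 in KD are higher in Sst and in other nuclei, while the Q153R interval of Wdr41 in Sst nuclei holds a ratio of 1. Ghr and Col12a1 are lower in KD in both, and Igf1r in Q153R is lower in Sst nuclei (0.625) but near 1 in the others.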

How the data were processed

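Nuclei of 17 mice were measured in 1 pooled 10x library. The deposited matrix holds unnormalized UMI counts, with 31053 rows for genes and 3 for hashtags. Its counts were made with Cell Ranger 6.0.0 on mm10 according to the submitters' processing notes, whereas the matrix header names version 7.0.0. The sources used here do not give the annotation or the intron setting. Hashtag minima were 61 UMIs for KD, 37 for Q153R and 105 for Ctrl. Library size was summed over gene rows. Counts were summed over nuclei and scaled to CPM, with exact Poisson intervals; ratios have exact conditional binomial intervals, and shares Clopper-Pearson intervals. Calls used CPM + 5. Steps were tested on simulated data. Clusters came from 2000 variable genes with the 501 listed genes left out, 30 components, 15 neighbours and Leiden resolution 1 (27 clusters; leidenalg 0.10.2, NumPy 2.4.6, SciPy 1.17.1). A cluster took a cell type name from at least 3 markers among its 10 leading genes. Barcodes with several hashtags were left out; no doublet caller was run. Positions are from GENCODE vM21, and promoters from RefSeq.

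Named genes were every measured gene of the somatostatin and GH lists, up to 3 highest and 2 lowest of each other list, the 15 highest and 10 lowest beyond the lists, and the 5 highest and 5 lowest per pool comparison. Other genes named among calls, between the clusters or by position were chosen after their values were seen. Members, lists and rules were chosen with earlier results of these data known. Alternatives varied the Sst and GABAergic limits, hashtag purity, pseudocount, filter, depth, comparison nuclei, sex class, pools left out and clustering resolution. A gene that the rule names is not reported here.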

Additional observations from a re-analysis of the deposited data

Results flagged for a closer look

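Barcodes outside the main measurement also met the transcript limits. Of 1124 barcodes with more than 1 hashtag, 81 did so, or 7.21% (5.76 to 8.88), against 5.12% of those with 1 hashtag. Their median depth was 11148 UMIs, against 4426 in Sst nuclei. Sst stood at 965 CPM in them, Ghr at 759 CPM, Col12a1 at 94.6 CPM and Stat5a at 12.9 CPM. Of 129 barcodes with no hashtag 3 met the limits, or 2.33% (0.482 to 6.65).

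The odds of being an Sst nucleus, against Ctrl, went opposite ways in the 2 sex classes. For KD the odds ratio was 0.664 among Xist nuclei and 2.51 (0.413 to 11) among nuclei with Y-linked UMIs. For Q153R it was 0.596 and 1.95 (0.828 to 5.12). The difference between the classes was not tested, since neither mice nor their sexes are known for each nucleus.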

How the results depend on the processing

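No paired analysis was possible because the library is a single pool and its hashtags carry no replicate numbers. The share of Sst nuclei, 5.12%, became 3.22% with a minimum of 8 Sst UMIs, 4.36% with no GABAergic UMI allowed, 6.04% with no GABAergic limit, 5.79% in Xist nuclei and 5.94% of nuclei with a Sim1 UMI. The odds ratio for Q153R became 0.632 with 8 Sst UMIs and 0.596 in Xist nuclei. The 78 higher genes became 122 with a pseudocount of 1 CPM. The 130 lower genes became 636 with that pseudocount, 224 with 8 Sst UMIs, 297 without barcodes near a second hashtag, 238 in Xist nuclei, 217 with means over nuclei and 321 with only the 2 main clusters. They became 274 without the Ctrl pool, 233 without KD and 259 without Q153R, where fewer pools had to meet the limit. With no filter on low genes, KD gave 2828 higher and 2774 lower genes and Q153R 2965 and 2480; in Xist nuclei KD gave 88 lower. At clustering resolution 2 the top 2 clusters held 59.0% of Sst nuclei. Of 172 log2 ratios of named genes 32 changed sign under at least 1 alternative, and 4 of these were past the fold used, Pmch (0.013 without barcodes near a second hashtag), Gad2 (1.02 with no GABAergic limit), and Gad1 (0.0736) and Mobp (0.0512) against nuclei with a Sim1 UMI. Of 23 called ratios of named genes between pools 8 lost the call under at least 1 alternative. The causes were not tested. Removal of the GABAergic limit, the 2-cluster set and the other resolutions were added after the data were seen. Genes under about 100 UMIs in Sst nuclei are limited by counting error, and no value has a replicate.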
